A study of Mus musculus with 46 samples.

Results

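Solute carrier genes encode the membrane transporters that move sugars, amino acids, ions, metals, vitamins and other small solutes into cells, out of cells or between organelles, and their mRNA levels were compared between mouse mammary tumors and normal mammary gland. A gene was taken as a member when its symbol in the platform annotation began with Slc and a digit, and the probe set with the highest mean over the 46 arrays stood for a gene with several. Of 211 such genes on the deposited table, 179 from 46 families were over a log2 value of 4 in 3 or more arrays and were kept, out of 9318 genes kept in all. The kept members include 3 genes that encode no transporter and carry the name of a partner or neighbour, Slc4a1ap, Slc9a3r1 and Slc9a3r2. The 32 members left out included Slc7a11 (the cystine transporter), Slc30a1 (a zinc exporter) and Slc2a5 (the fructose transporter). The selection used the overall level of a gene and not its difference between groups. Even so, Slc47a1 passed it through p53-/- tumors alone and Slc27a2 and Slc5a6 passed it through normal gland alone, so those 3 had to differ between groups.

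Total RNA of 41 primary mammary tumors from 8 genetically engineered mouse models and of 5 normal mammary glands was hybridized to Affymetrix mouse genome arrays, 1 array for each tumor or gland. The study treated 3 models as basal-type. These were C3TAg (5 tumors, FVB), which carries SV40 T and t antigens under the C3(1) promoter, p53-/- (7 tumors, Balb/C), in which floxed p53 is deleted by MMTV-Cre and the tissue was transplanted, and Brca1-/-p53+/- (5 tumors, 129B6/FVB), in which MMTV-Cre deletes floxed Brca1 in mice with 1 functional p53 allele. It treated 5 FVB models as luminal-type, each with an oncogene under the MMTV promoter. These were MMTV-Hras (5 tumors), MMTV-H2N (5 tumors, Her2/neu), MMTV-C-Myc (4 tumors), MMTV-PymT (6 tumors, polyoma middle T antigen) and MMTV-Wnt (4 tumors, Wnt1). Each tumor came from a different mouse, and the normal mammary glands came from pregnant FVB mice. The MMTV promoter is also active in the salivary gland. The p53-/- and Brca1-/-p53+/- models differ from normal gland and from the other models in strain, so strain and model cannot be told apart for them. The samples are bulk tissue, in which fewer cells of a type and less RNA per cell cannot be told apart.

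The late pregnant gland is a secretory organ that takes up glucose, amino acids, phosphate, calcium, zinc, iron and vitamins from blood and passes them on to milk, while its fat cells take up glucose and fatty acids. Tumor cells draw on many of the same carriers for growth. Glucose enters through Slc2 (GLUT) and sodium-coupled Slc5 carriers, amino acids through Slc1, Slc6, Slc7 and Slc38 carriers, and lactate leaves through Slc16 carriers. Slc30 proteins move zinc out of the cytosol and Slc39 proteins move it in, and Slc35 proteins feed sugar nucleotides to the Golgi apparatus. Most Slc25 proteins sit in mitochondria, and the whole family is counted below as mitochondrial carriers.

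The values are GC-RMA signals on the log2 scale, on which unexpressed probe sets lie near 2, so a fold change against such a level depends on that floor. Array medians lay between 6.48 and 7.48. Fat and muscle marker genes moved with the comparison of tumors and normal gland. All 10 of 10 measured adipocyte markers and all 6 of 6 skeletal muscle markers were lower in tumors, as were 11 of 12 milk and secretory epithelium markers. The mean log2 value of the adipocyte list lay between 3.6 and 7.8 in tumors other than Brca1-/-p53+/- 2, at 11.8 in that tumor, and between 10.28 and 12.03 in normal glands. The summed signal of that list, as log2, lay between 9.07 and 16.68 in tumors and between 16.26 and 16.94 in normal glands. The summed signal of the milk list, as log2, lay between 10.7 and 17.5 in tumors and between 18.22 and 18.59 in normal glands. Brca1-/-p53+/- tumor 2 also held the highest skeletal muscle mean of all arrays, 14.1. Brca1-/-p53+/- tumors 3 and 4 and MMTV-Wnt tumor 3 had low luminal epithelium means of 6.8, 5.0 and 6.7, and counts are given without these 4 arrays where that matters. Salivary gland marker means were 13.1, 13.5, 11.6, 6.6 and 11.8 in MMTV-Hras tumors 1 to 5, 14.2 in MMTV-PymT tumor 2 and 10.7 in MMTV-Wnt tumor 2, against 4.14 to 6.16 in normal glands. Normal glands 1, 2 and 3 stood apart from glands 4 and 5 in Ucp1, the uncoupling protein of brown fat, which was examined after Slc27a2 had been seen to split the glands. Ucp1 was at 2.04, 2.13 and 8.16 in tumors (lowest, median and highest) and at 13.01, 13.96, 14.05, 2.13 and 2.24 in normal glands 1 to 5, and the part of this tissue difference in the results was not tested.

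Setting the 8 models together against normal mammary gland asked which members differ between tumor and gland. More members were lower than higher in tumors. With limma and Benjamini-Hochberg adjustment over all genes, 23 of 179 members (12.8%) were higher and 47 (26.3%) were lower at an adjusted p under 0.05, beside 24.2% and 17.1% of all genes tested. The 47 include Slc27a2, a fatty acid carrier, and Slc5a6, a vitamin carrier, both with a direction fixed by the filter on low values. The median difference was -0.07 over members and 0.20 over all genes. Mitochondrial carriers gave 4 higher and 13 lower of 29, zinc transporters 1 and 6 of 17, and fatty acid and acetyl-CoA carriers 0 and 3 of 5. Amino acid and peptide carriers gave 3 higher and 4 lower of 28, inorganic ion carriers 4 and 5 of 27, and sugar carriers 3 and 4 of 16. No nucleotide sugar transporter of 16 was called higher and 3 were called lower. Among organic anion and cation carriers 1 was higher and 4 were lower of 11, among vitamin, choline and heme carriers 3 and 2 of 12, and among nucleoside and nucleotide carriers 2 and 1 of 6. With each array centred on its median the split was 15 higher and 56 lower. Without Brca1-/-p53+/- tumors 2, 3 and 4 and MMTV-Wnt 3 it was 23 higher and 49 lower. Without normal gland 1 alone, 15 members were higher. Without normal glands 1, 2 and 3, which leaves 2 glands, 3 members were higher (Slc44a2, Slc29a3 and Slc25a24) and 32 lower. Every other upward call over the 8 models named below was lost without those glands, and of the downward calls named below those of Slc25a4, Slc25a5, Slc25a20, Slc27a2, Slc28a3, Slc35c1 and Slc38a4 were lost. The 2 glands left give wider standard errors, so a lost call need not be a smaller difference. Slc25a13 went from 1.33 to 1.90, Slc19a1 from 0.95 to 1.54, Slc28a3 from -3.67 to -4.49 and Slc35c1 from -1.16 to -1.40. Slc27a2 went from -5.53 to -0.49, Slc25a20 from -2.19 to -0.91 and Slc38a1 from 3.06 to 2.52. The share of all genes called was not computed with arrays centred on their medians or with arrays left out. The 24.2% and 17.1% given above belong to the main fit. All 41 tumors lay below the lowest normal gland for 4 members (2.23%, beside 1.23% of all genes), Slc25a42, Slc25a46, Slc41a3 and Slc5a6, of which Slc5a6 had its direction fixed by the filter on low values. All tumors lay above the highest normal gland for 0 members, beside 0.461% of all genes.

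**Figure D1:**
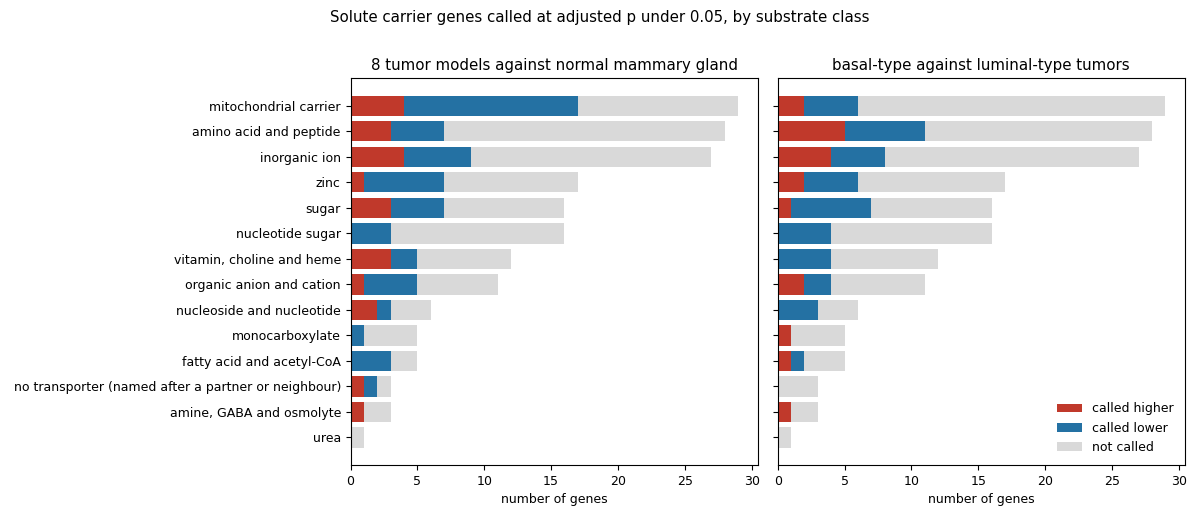
Number of solute carrier genes (horizontal axis) in each substrate class called higher (red), lower (blue) or not called (grey) by limma at an adjusted p under 0.05, for the 8 tumor models against normal mammary gland (left) and for basal-type against luminal-type tumors (right). Mitochondrial carriers held 13 of the 47 members lower in tumors, and no nucleotide sugar transporter was called higher in either comparison.

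Among sugar transporters, the insulin-responsive glucose transporter Slc2a4 (GLUT4) of fat and muscle fell furthest in tumors, and the basal glucose transporter Slc2a1 (GLUT1) did not pass the test. Slc2a4 was at 3.50, 5.61 and 10.01 in the 41 tumors (lowest, median and highest) and at 9.99, 11.76, 12.21, 9.52 and 10.29 in normal glands 1 to 5. Only Brca1-/-p53+/- tumor 2 overlapped the glands, and 40 of 41 tumors lay below all of them. That tumor had adipocyte markers at the level of the glands and the highest skeletal muscle mean of all arrays. Tumor 7 of the p53-/- model was at 8.73, with adipocyte and skeletal muscle means of 4.5 and 2.7. The part of fat and muscle RNA in the Slc2a4 result was not tested. The difference was -4.80 ± 0.55 (SE), 27.8-fold lower in tumors, with a limma adjusted p of 6.86e-09, and it was called in all 8 models. Slc2a1 was at 9.01, 11.13 and 13.23 in tumors and at 10.49, 10.35, 9.94, 12.26 and 11.12 in normal glands, a difference of 0.18 ± 0.42 (SE, adjusted p = 0.753). Its direction turned with scaling, being -0.021 with each array centred on its median. Slc50a1, the mammalian SWEET sugar transporter, was lower in tumors by a difference of -1.99 (adjusted p = 1.14e-06), and Slc2a9, a urate carrier of the GLUT family, by -2.61 (adjusted p = 0.00019).

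The sodium-coupled carriers Slc5a9 and Slc5a1 were model-dependent. Slc5a9, a carrier of mannose and other hexoses, was at 2.14, 5.35 and 8.18 in tumors and at 2.28, 2.23, 3.09, 2.53 and 3.05 in normal glands. Its mean was 7.57 in MMTV-H2N, 7.01 in MMTV-Hras and 6.76 in MMTV-PymT tumors, but 2.43 in C3TAg tumors. The difference was 2.34 ± 0.57 (SE, adjusted p = 0.00102), and a second Slc5a9 probe set gave 0.60 (adjusted p = 0.219). Slc5a1 (SGLT1), which takes up glucose and galactose, was at 2.84, 6.64 and 10.10 in tumors and at 8.29, 8.61, 8.14, 9.13 and 9.48 in normal glands. It was lower in tumors by a difference of -2.31 (adjusted p = 0.00334) but was not called in MMTV-Hras, MMTV-H2N and MMTV-PymT tumors, where its mean was 9.82, 8.54 and 8.34. Slc37a1 and Slc37a3, sugar phosphate carriers, were higher in tumors by 1.09 (adjusted p = 0.015) and 1.22 (adjusted p = 0.00053).

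The monocarboxylate carriers Slc16a1 (MCT1) and Slc16a3 (MCT4), both proton-coupled lactate transporters, had different patterns across the models, and their promoters are shown to set them side by side. The windows, which span the start site, are RefSeq sequence on build GRCm38.p6, both on the plus strand, at chr3:104638414-104638713 for Slc16a1 and chr11:120948817-120949116 for Slc16a3. Capitals mark CACGTG, the E-box that Myc and Usf proteins can bind, in Slc16a1, and ACGTGC, a core of the hypoxia response element, in Slc16a3.
Slc16a1 promoter: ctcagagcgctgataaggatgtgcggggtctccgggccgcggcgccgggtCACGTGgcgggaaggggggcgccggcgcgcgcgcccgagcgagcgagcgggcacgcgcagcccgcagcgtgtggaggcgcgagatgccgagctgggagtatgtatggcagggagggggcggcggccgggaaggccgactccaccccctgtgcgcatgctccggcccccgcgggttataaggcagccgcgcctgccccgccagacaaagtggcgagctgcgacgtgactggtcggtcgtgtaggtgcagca
Slc16a3 promoter: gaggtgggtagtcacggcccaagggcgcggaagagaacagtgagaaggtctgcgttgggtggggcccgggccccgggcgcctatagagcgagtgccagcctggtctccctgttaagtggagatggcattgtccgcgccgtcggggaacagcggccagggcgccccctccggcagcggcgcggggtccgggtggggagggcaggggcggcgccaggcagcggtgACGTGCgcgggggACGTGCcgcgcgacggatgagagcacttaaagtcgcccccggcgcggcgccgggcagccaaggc
CACGTG reads the same on both strands and was in 7.15% of 32851 promoter windows of this length, and in 24 of 185 windows of the 134 members matched by gene ID. ACGTGC, searched on both strands and overlapping CACGTG where a C follows it, was in 5.91% of all windows and in 13 of the 185 windows of members. Slc16a1 held no ACGTGC and Slc16a3 no CACGTG in these windows. A match describes the letters and is not evidence of binding.

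Slc16a1 was lower in tumors of all 8 models. It was at 5.48, 9.73 and 12.54 in the 41 tumors and at 11.95, 12.86, 12.54, 12.61 and 12.72 in normal glands, and 38 tumors lay below all 5 glands. The difference was -3.23 ± 0.41 (SE, adjusted p = 4.74e-08), 9.37-fold lower. Its moderated F among the 8 models was the highest of all members (adjusted p = 5.82e-09). MMTV-Hras tumors were lowest, at 6.91, 5.97, 5.97, 7.01 and 5.48, which is 77.0-fold below normal gland, followed by MMTV-H2N tumors at 7.17 ± 0.29 (SD, n = 5). MMTV-C-Myc tumors were highest, at 11.06 ± 0.89 (SD, n = 4), with a difference from normal gland of -1.47 (adjusted p = 0.0477), and p53-/- tumors averaged 10.86.

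Slc16a3 was near the floor in normal gland and was higher in C3TAg and Brca1-/-p53+/- tumors. It was at 5.60, 6.91, 5.94, 6.44 and 5.14 in C3TAg tumors and at 7.97, 4.39, 8.59, 8.11 and 5.60 in Brca1-/-p53+/- tumors, against 2.21, 2.19, 2.17, 2.38 and 3.85 in normal glands 1 to 5. Every tumor of these 2 models lay above every gland. The differences from normal gland were 3.45 (adjusted p = 0.00105) in C3TAg and 4.37 (adjusted p = 0.000166) in Brca1-/-p53+/- tumors. MMTV-Hras and MMTV-H2N tumors stayed near 2.2. Single tumors of other models were high, among them MMTV-Wnt 3 at 7.77, MMTV-C-Myc 1 at 7.31 and MMTV-PymT 5 at 5.56. In all, 17 of 41 tumors lay above every gland, so tumors not named here were also raised. Over the 8 models together Slc16a3 was not called, with a difference of 1.31 (adjusted p = 0.103).

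Amino acid carriers moved in both directions. Slc38a1 (SNAT1), a sodium-coupled carrier of glutamine and other neutral amino acids, was at 3.70, 8.07 and 10.63 in tumors and at 5.89, 4.49, 3.56, 4.35 and 6.78 in normal glands. In all, 34 of 41 tumors lay above all glands, and MMTV-Hras tumors were highest at 10.10 ± 0.71 (SD, n = 5). The difference was 3.06 ± 0.67 (SE), 8.36-fold higher, with an adjusted p of 0.000279, called in 5 models. Slc15a3, an endolysosomal carrier of histidine and small peptides, was at 2.69, 4.58 and 8.31 in tumors and at 3.04, 2.71, 3.01, 2.75 and 3.86 in normal glands, a difference of 2.14 ± 0.53 (SE, adjusted p = 0.00131), and averaged 7.03 in p53-/- tumors. Macrophage markers, of which 5 of 8 were higher in tumors, moved in the same direction. Their mean log2 value lay between 6.55 and 11.94 in tumors and between 8.06 and 8.59 in normal glands, and their part in the Slc15a3 result was not tested. Slc3a2, the heavy chain that pairs with Slc7a5, was higher in tumors by 0.79 ± 0.22 (SE, adjusted p = 0.00305), at 9.96, 11.25 and 12.30 in tumors and 10.60, 10.38, 9.99, 10.92 and 10.55 in normal glands.

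The carriers that fell were Slc1a3, Slc7a10, Slc1a5 and Slc38a4. Slc1a3 (GLAST), a glutamate and aspartate carrier, was at 2.33, 2.82 and 8.19 in tumors and at 8.71, 9.78, 9.29, 8.24 and 7.38 in normal glands. The only tumor within the range of the glands was p53-/- 2, and the difference was -5.21 ± 0.66 (SE, adjusted p = 4.64e-08). Slc7a10 (Asc-1), a small neutral amino acid exchanger also known as an adipocyte surface protein, was at 2.04, 2.08 and 8.98 in tumors and at 5.81, 6.51, 6.85, 7.04 and 5.37 in normal glands. The 8.98 came from Brca1-/-p53+/- 2, the tumor with adipocyte markers at the level of the glands, and the difference was -4.00 ± 0.49 (SE, adjusted p = 2.6e-08). That tumor and the normal glands were the only 6 arrays over the level of the filter on low values, so the filter largely fixed this direction. Slc1a5 (ASCT2), a glutamine exchanger, was at 4.20, 6.66 and 11.06 in tumors and at 9.71, 10.05, 10.48, 9.62 and 9.71 in normal glands, a difference of -3.28 ± 0.44 (SE, adjusted p = 1.48e-07). It was called lower in 7 models, and in MMTV-C-Myc tumors it was at 8.61 ± 0.55 (SD, n = 4), a difference of -1.31 (adjusted p = 0.107). Slc7a5 (LAT1), the large neutral amino acid transporter, was not called over the 8 models, at 6.67, 9.75 and 12.12 in tumors and 9.66, 10.72, 9.45, 11.10 and 11.31 in normal glands (difference -0.70 ± 0.47, SE, adjusted p = 0.239).

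Among ion carriers the largest differences were downward. Slc34a2 (NaPi-IIb), the phosphate transporter of secretory mammary epithelium, was at 2.24, 4.69 and 9.31 in tumors and at 10.47, 10.82, 8.91, 13.31 and 11.14 in normal glands. Tumors of the MMTV-H2N model, at 8.06 ± 0.46 (SD, n = 5), and of the MMTV-PymT model, at 8.35 ± 0.57 (SD, n = 6), kept most signal, while C3TAg tumors were at 3.12 ± 0.08 (SD, n = 5). The difference over the 8 models was -5.51 ± 0.69 (SE), 45.4-fold lower (adjusted p = 3.36e-08). The mean of the milk and secretory epithelium list was 10.92 to 12.14 in MMTV-H2N, 8.98 to 11.97 in MMTV-PymT, 3.99 to 6.56 in C3TAg tumors and 13.81 to 14.71 in normal glands, and its part in the Slc34a2 result was not tested. Slc41a3, of the magnesium transporter family, was at 3.45, 4.16 and 7.30 in tumors and at 9.57, 8.80, 8.67, 10.03 and 9.33 in normal glands, with no overlap, and had the smallest adjusted p of all members (difference -4.90 ± 0.29, SE, adjusted p = 1.55e-16). Slc24a3, a potassium-dependent sodium and calcium exchanger, was at 2.34, 5.03 and 10.60 in tumors and at 9.91, 11.76, 12.10, 9.94 and 9.03 in normal glands, a difference of -5.21 ± 0.65 (SE, adjusted p = 3.93e-08). The highest tumor for both Slc41a3 and Slc24a3 was Brca1-/-p53+/- 2.

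Upward differences among ion carriers were smaller. Slc12a7 (KCC4), a potassium and chloride cotransporter, was at 6.04, 8.10 and 9.68 in tumors and at 5.30, 7.73, 7.75, 6.80 and 7.23 in normal glands. The groups overlapped, the difference was 1.26 ± 0.34 (SE, adjusted p = 0.00287), a second Slc12a7 probe set gave 0.44 (adjusted p = 0.305), and without normal gland 1 the call was lost (adjusted p = 0.0565). The phosphate carriers Slc20a1 and Slc20a2 were higher by 1.11 (adjusted p = 0.039) and 0.73 (adjusted p = 0.03), and the anion exchanger Slc4a2 by 0.92 (adjusted p = 0.0081). A second Slc20a2 probe set gave 0.12 (limma adjusted p = 0.682), and a second Slc20a1 probe set gave 1.99 (adjusted p = 0.0111). Slc40a1 (ferroportin), the iron exporter, was not called, at 3.83, 8.41 and 11.10 in tumors and 8.62, 8.70, 9.02, 7.99 and 7.51 in normal glands (difference -0.34, adjusted p = 0.716), and the mean of its probe sets gave 0.16.

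Zinc transporters were mostly lower in tumors where they were called. Slc39a14 (ZIP14) was at 5.02, 8.91 and 10.52 in tumors and at 11.00, 10.93, 10.02, 11.53 and 11.30 in normal glands, a difference of -2.52 ± 0.41 (SE, adjusted p = 3.83e-06) called in all 8 models, and MMTV-Hras tumors averaged 5.76. Slc39a8 (ZIP8) was at 2.30, 5.61 and 9.77 in tumors and at 7.90, 7.74, 7.40, 11.28 and 9.87 in normal glands, a difference of -3.26 ± 0.73 (SE, adjusted p = 0.000391). Both are zinc importers that also carry iron and manganese. The milk zinc exporters also fell. Slc30a2 (ZnT2), which loads zinc into secretory vesicles, was at 2.04, 2.68 and 7.35 in tumors and at 5.09, 4.00, 2.69, 6.51 and 5.34 in normal glands (difference -1.55 ± 0.50, SE, adjusted p = 0.0109), and Slc30a4 (ZnT4), mutated in the lethal milk mouse, was at 6.52, 10.12 and 11.43 in tumors and at 11.28, 10.94, 10.44, 12.24 and 11.69 in normal glands (difference -1.33 ± 0.33, SE, adjusted p = 0.00123). For Slc30a2 the highest tumors were of the p53-/- model, at a mean of 4.72, and the call was lost without normal gland 4 (adjusted p = 0.0993). Slc30a6 was the only zinc transporter called higher, by 0.48 ± 0.18 (SE, adjusted p = 0.0341), a call that was lost without gland 2, 3 or 4 and under both other scalings.

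Mitochondrial carriers gave the largest number of lower members. Slc25a42, a coenzyme A carrier, was at 2.80, 4.86 and 7.60 in tumors and at 8.58, 10.67, 10.29, 8.96 and 7.63 in normal glands, a difference of -4.24 ± 0.50 (SE, adjusted p = 1.07e-08). Slc25a20, the carnitine and acylcarnitine carrier of fatty acid oxidation, was at 8.37, 10.05 and 11.22 in tumors and at 12.71, 12.83, 13.43, 10.76 and 10.96 in normal glands (difference -2.19 ± 0.31, SE, adjusted p = 3.44e-07). For Slc25a20 normal glands 1, 2 and 3 were high and glands 4 and 5 lay within the range of the tumors, the division of the glands seen in Ucp1, and without glands 1, 2 and 3 the difference was -0.91 (adjusted p = 0.119). For Slc25a42 glands 2 and 3 were highest, and without glands 1, 2 and 3 the difference was -3.31 (adjusted p = 0.00178). Slc25a46, an outer membrane protein that acts in mitochondrial shape, was at 8.07, 9.18 and 9.85 in tumors and at 10.42, 10.65, 10.75, 10.20 and 9.95 in normal glands, a small but non-overlapping difference of -1.22 ± 0.18 (SE, adjusted p = 8.78e-07). The adenine nucleotide translocators Slc25a4 and Slc25a5 were lower by differences of -0.67 (adjusted p = 0.0012) and -0.53 (adjusted p = 0.0056). Slc25a24, a calcium-regulated carrier of ATP-Mg and phosphate, was higher, at 2.47, 5.52 and 8.28 in tumors and at 3.78, 3.47, 3.78, 2.50 and 3.22 in normal glands, with 36 of 41 tumors above all glands (difference 2.41 ± 0.55, SE, adjusted p = 0.00049). Slc25a13 (citrin), an aspartate and glutamate carrier, was at 3.87, 7.01 and 10.56 in tumors and at 6.65, 5.45, 5.91, 3.84 and 6.26 in normal glands (difference 1.33 ± 0.45, SE, adjusted p = 0.0168), and it was not called without gland 4 (adjusted p = 0.147).

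The fatty acid carriers Slc27a1 and Slc27a2 were both lower in tumors. Slc27a1 (FATP1), a fatty acid transport protein of fat and muscle, was at 3.33, 3.97 and 7.35 in tumors and at 7.02, 7.69, 7.48, 7.31 and 7.29 in normal glands, a difference of -3.14 ± 0.35 (SE, adjusted p = 2.99e-09). Slc27a2 (FATP2), a very long chain acyl-CoA synthetase, was at 2.12, 2.16 and 3.98 in tumors and at 10.84, 11.40, 11.25, 2.28 and 3.24 in normal glands. Glands 1, 2 and 3 were high and glands 4 and 5 lay within the range of the tumors, the same division of the glands as for Ucp1. The difference over all 5 glands was -5.53 ± 0.72 (SE, adjusted p = 7.16e-08), and without glands 1, 2 and 3 it was -0.49 (adjusted p = 0.296). Slc27a2 passed the filter on low values through normal gland alone, which fixed its direction in advance. Slc33a1, the acetyl-CoA transporter of the endoplasmic reticulum, was lower by a difference of -1.38 (adjusted p = 0.00093).

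Vitamin and choline carriers included the only member called higher in all 8 models. That member was Slc44a2, a choline transporter-like protein, at 7.72, 10.30 and 11.75 in tumors and at 5.96, 7.06, 6.60, 9.11 and 7.97 in normal glands. In all, 38 of 41 tumors lay above every gland, and the difference was 2.95 ± 0.36 (SE), 7.75-fold higher (adjusted p = 2.56e-08). Other Slc44a2 probe sets gave smaller differences of 1.08 (adjusted p = 0.0345) and 0.17 (adjusted p = 0.675). Slc5a6, the sodium-coupled biotin and pantothenate transporter, was at 2.12, 2.20 and 3.93 in tumors and at 5.55, 7.21, 4.04, 8.30 and 4.33 in normal glands, a difference of -3.57 ± 0.33 (SE, adjusted p = 3.15e-11) with no overlap, and the selection of members through normal gland alone fixed its direction. Slc19a1 and Slc19a2, the folate and thiamine carriers, were higher by 0.95 (adjusted p = 0.039) and 0.75 (adjusted p = 0.014).

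Nucleoside carriers differed by type. Slc29a3 (ENT3), an equilibrative carrier of intracellular membranes, was at 6.91, 8.88 and 10.19 in tumors and at 6.36, 6.74, 5.27, 5.69 and 7.38 in normal glands, with 35 tumors above all glands (difference 2.43 ± 0.34, SE, adjusted p = 2.3e-07). A second Slc29a3 probe set gave 0.11 (adjusted p = 0.776). Slc29a1 (ENT1), the main equilibrative carrier of the plasma membrane, was at 8.04, 11.22 and 13.75 in tumors and at 9.23, 9.86, 10.07, 10.11 and 9.06 in normal glands (difference 1.47 ± 0.44, SE, adjusted p = 0.006). The concentrative carrier Slc28a3 (CNT3) went the other way, at 2.66, 9.60 and 13.19 in tumors and at 11.98, 12.44, 11.48, 13.74 and 12.93 in normal glands (difference -3.67 ± 1.04, SE, adjusted p = 0.00437), and MMTV-H2N and MMTV-PymT tumors overlapped the glands.

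Organic ion carriers and the GDP-fucose carrier followed. Slc22a23, an Slc22 member with no settled substrate, was at 2.78, 6.29 and 9.87 in tumors and at 9.54, 9.14, 8.79, 9.27 and 9.44 in normal glands (difference -2.92 ± 0.63, SE, adjusted p = 0.000244). Slc22a5 (OCTN2), the carnitine transporter, was lower by a difference of -2.40 ± 0.28 (SE, adjusted p = 7.14e-09), at 5.45 to 9.13 in tumors and 10.15, 10.30, 9.94, 10.04 and 8.80 in normal glands. Slc22a17, a receptor for lipocalin 2, was higher by 1.14 ± 0.37 (SE, adjusted p = 0.0128), at 3.50, 5.77 and 8.86 in tumors and 5.67, 3.64, 4.75, 5.60 and 4.82 in normal glands, and lost its call without gland 2 (adjusted p = 0.106) and with each array centred on its median (adjusted p = 0.0606). Slc35c1, which carries GDP-fucose into the Golgi apparatus, was at 4.24, 5.99 and 8.56 in tumors and at 7.51, 7.28, 6.53, 7.24 and 7.75 in normal glands (difference -1.16 ± 0.39, SE, adjusted p = 0.0159), and it was not called without gland 5 (adjusted p = 0.0562).

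**Figure D2:**
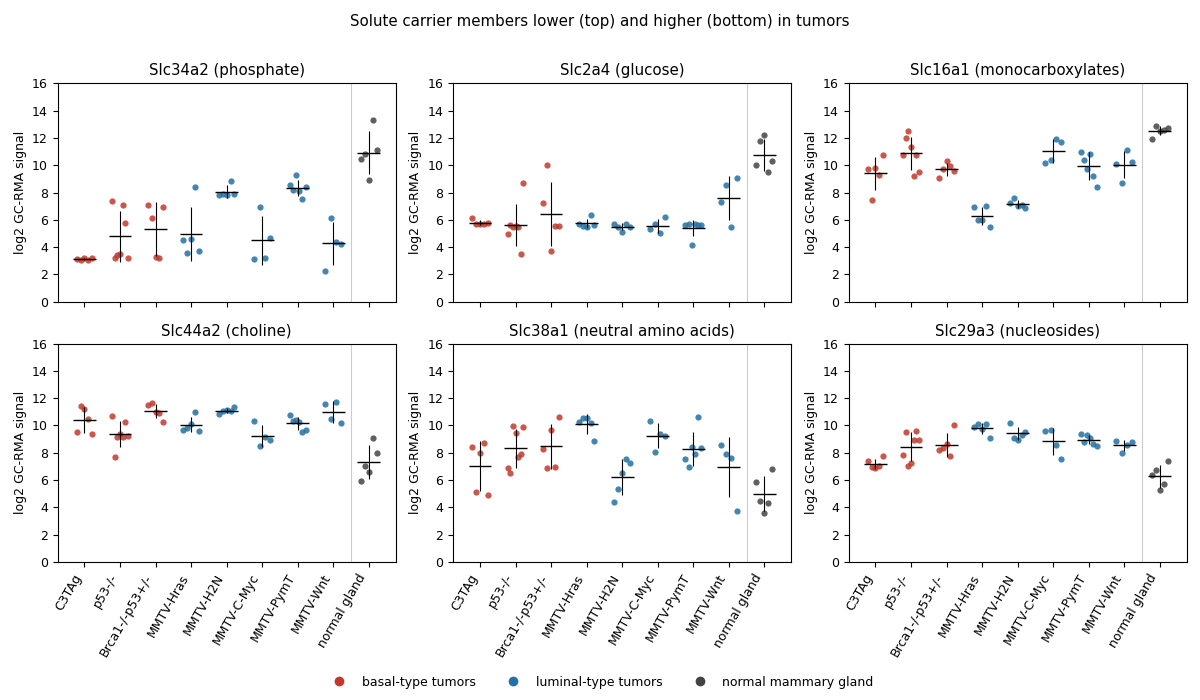
Log2 GC-RMA signal (vertical axis) of 6 solute carrier genes in each array, by tumor model and normal mammary gland, with basal-type tumors in red, luminal-type tumors in blue and glands in grey. Horizontal bars are group means and vertical lines 1 SD. Slc34a2, Slc2a4 and Slc16a1 were lower in tumors, by differences of -5.51, -4.80 and -3.23, and Slc44a2, Slc38a1 and Slc29a3 were higher, by 2.95, 3.06 and 2.43.

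Each model was then set against the same 5 normal glands, so the 8 comparisons share them. In C3TAg tumors 23 members were higher and 57 lower, beside 29.5% and 18.5% of all genes. In p53-/- tumors 22 were higher and 43 lower, beside 26.2% and 16.6%. In Brca1-/-p53+/- tumors 17 were higher and 44 lower, beside 16% and 16.2%, and without tumors 2, 3 and 4 of this model and MMTV-Wnt 3, which leaves 2 tumors of this model, the counts were 6 and 25. In MMTV-Hras tumors 18 were higher and 31 lower, beside 14% of all genes in each direction. In MMTV-H2N tumors 30 were higher and 32 lower, beside 22.3% and 12.7%. Tumors of the MMTV-C-Myc model had 17 higher and 39 lower, beside 17.2% and 14.6%, with 11 higher without MMTV-C-Myc 1. In MMTV-PymT tumors 19 were higher and 32 lower, beside 20.3% and 12.3%. In MMTV-Wnt tumors 9 were higher and 40 lower, beside 14.5% and 13.2%. These shares of all genes belong to all arrays as deposited and were not computed with arrays centred or left out. With each array centred on its median the split was 14 higher and 63 lower in p53-/-, 20 and 42 in MMTV-H2N and 14 and 39 in MMTV-PymT tumors. Without normal glands 1, 2 and 3 the members called higher numbered 15 in C3TAg, 8 in p53-/-, 9 in Brca1-/-p53+/-, 6 in MMTV-Hras, 12 in MMTV-H2N, 5 for MMTV-C-Myc, 3 for MMTV-PymT and 2 for MMTV-Wnt tumors, and those called lower lay between 24 and 42.

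Called in all 8 models were 1 member higher, Slc44a2, beside 3.1% of all genes, and 16 members lower, beside 4% of all genes. The 16 were the glucose and sugar carriers Slc2a4 and Slc50a1, the amino acid carriers Slc1a3 and Slc7a10, the lactate carrier Slc16a1, the ion carriers Slc24a3, Slc34a2 and Slc41a3, the zinc carrier Slc39a14, the mitochondrial carriers Slc25a20, Slc25a42 and Slc25a46, the fatty acid carriers Slc27a1 and Slc27a2, the carnitine carrier Slc22a5 and the vitamin carrier Slc5a6. Slc27a2 and Slc5a6 had passed the filter on low values through normal gland alone, which fixed their direction, and without them 14 of 177 members were lower in all 8 models. Slc7a10, still among those 14, passed that filter only through the normal glands and Brca1-/-p53+/- 2. The glands were needed for it to pass. For Slc2a4, Slc7a10, Slc24a3, Slc41a3, Slc27a1, Slc22a5 and Slc25a42 the highest tumor was Brca1-/-p53+/- 2, in which adipocyte and muscle markers were high, and the part of fat and muscle RNA in these differences was not tested.

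**Figure D3:**
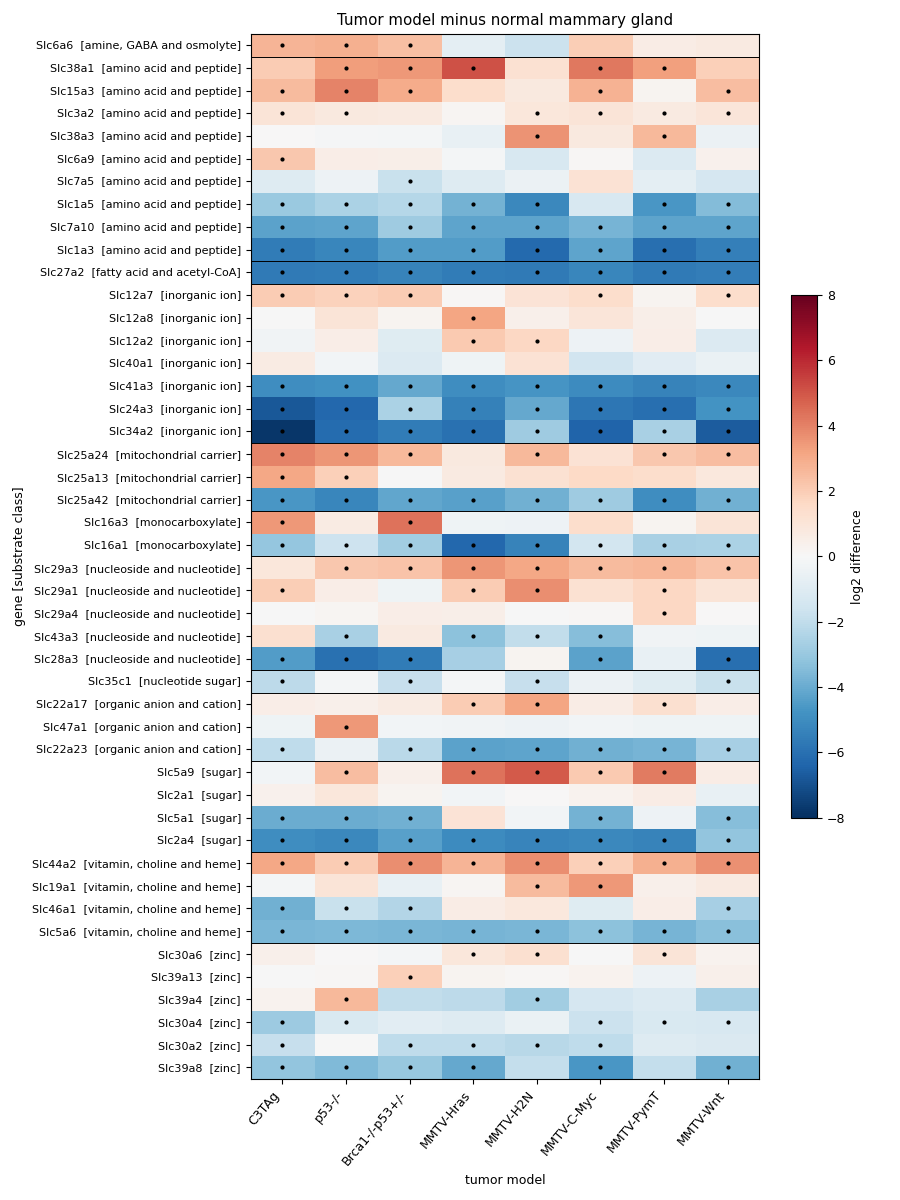
Log2 difference of each tumor model (columns) from normal mammary gland for the 46 named solute carrier genes (vertical axis), grouped by substrate class, with red for higher and blue for lower in the model and a dot where limma gave an adjusted p under 0.05. Differences run from -7.81 to 5.08, and Slc44a2 is called higher in every column.

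Differences among the 8 models were tested with a moderated F test over the model means. In all, 126 of 179 members (70.4%) differed among models at an adjusted p under 0.05, beside 74.5% of all genes. A member was further counted as high in 1 model when it was higher there than over the other 8 groups, each weighted alike, and its median in that model exceeded the third highest value among all other arrays. By that count 11 members (6.15%) were high in C3TAg tumors, beside 10.7% of all genes, and 3 (1.68%) in p53-/-, beside 3.53%. In Brca1-/-p53+/- tumors 4 (2.23%) were high, beside 2.39%, and in MMTV-Hras 10 (5.59%), beside 3.77%. MMTV-H2N tumors had 19 (10.6%), beside 6.45%, and MMTV-C-Myc tumors 5 (2.79%), beside 3.26%. MMTV-PymT tumors had 1 (0.559%), beside 3.56%, and MMTV-Wnt tumors 0, beside 1.19%.

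In C3TAg tumors the 2 members with the largest differences were Slc43a3, a purine nucleobase carrier, and Slc6a9, the glycine transporter GLYT1. Slc43a3 was at 6.69, 8.05, 8.43, 8.39 and 8.61 in C3TAg tumors and at 5.52 to 7.52 in normal glands, a difference from the other groups of 2.66 (adjusted p = 0.000619). Slc6a9 was at 7.06, 7.02, 6.98, 6.75 and 5.68 in C3TAg tumors and at 3.76 to 5.62 in normal glands, a difference of 2.32 (adjusted p = 0.000554), and between basal-type and luminal-type tumors this probe set gave 1.52 (adjusted p = 0.00453) and a second one 0.05 (adjusted p = 0.733). Slc7a3, a cationic amino acid carrier, and Slc25a13 followed with 2.27 and 2.13.

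In p53-/- tumors Slc39a4 (ZIP4), the zinc importer of the intestine, was at 9.26, 2.05, 9.48, 7.48, 9.52, 5.59 and 8.72, against 2.21, 5.75, 5.85, 3.66 and 6.83 in normal glands. Tumor 2 of this model lay at the floor, and 5 of the 7 tumors lay above every gland. Against the other 8 groups Slc39a4 was 4.04 higher (adjusted p = 6.08e-05), and against normal gland alone it was 2.58 higher (adjusted p = 0.0309). It was lower in MMTV-H2N tumors, all of which were between 2.03 and 2.07, by a difference from normal gland of -2.81 (adjusted p = 0.0357). Slc47a1 (MATE1), an exporter of organic cations, was at 10.35, 6.68, 2.17, 2.22, 9.20, 8.64 and 2.23 in p53-/- tumors and at 2.07 to 2.44 in all other tumors, with 3.49 in normal gland 1. It was thus expressed in 4 of 7 tumors of this model, and the filter on low values admitted it through them alone.

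In Brca1-/-p53+/- tumors Slc16a3, described above, led with a difference from the other groups of 3.61 (adjusted p = 0.000259), followed by Slc39a13 (ZIP13), a zinc carrier of intracellular membranes. Slc39a13 was at 7.64, 7.58, 9.02, 9.67 and 5.96 in these tumors and at 5.88 to 6.47 in normal glands, a difference of 1.82 (adjusted p = 0.00105), against 0.74 (adjusted p = 0.399) without tumors 2, 3 and 4 and MMTV-Wnt 3, which itself was at 8.78. Slc11a1, a metal ion carrier of macrophage phagosomes, and Slc6a8, the creatine transporter, were also high in this model. Macrophage and fibroblast markers moved with Slc39a13, Slc11a1 and Slc6a8. The macrophage mean was 9.8, 10.7, 11.2, 11.7 and 7.6 and the fibroblast and matrix mean 12.3, 12.1, 13.3, 12 and 7 in Brca1-/-p53+/- tumors 1 to 5, against 8.06 to 8.59 and 10.3 to 10.97 in normal glands, and their part in these results was not tested. Tumor 5, the lowest in both lists, was also the lowest of the model in Slc39a13, Slc11a1 and Slc6a8.

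In MMTV-Hras tumors Slc5a1 was at 9.09, 9.87, 10.06, 10.10 and 9.97, against 8.29, 8.61, 8.14, 9.13 and 9.48 in normal glands, and was 3.54 higher than in the other 8 groups (adjusted p = 0.000112). Slc12a8, of the cation and chloride cotransporter family, was at 5.10, 4.60, 6.35, 2.29 and 8.21 in MMTV-Hras tumors and at 2.13 to 2.17 in normal glands, while p53-/- tumor 3 was higher still at 9.60, and the difference from the other groups was 2.78 (adjusted p = 0.00417). Slc12a2 (NKCC1), the sodium, potassium and chloride cotransporter of secretory epithelia, was at 13.52, 13.78, 14.55, 14.48 and 14.92 in MMTV-Hras tumors and at 13.82 ± 0.10 (SD, n = 5) in MMTV-H2N tumors, against 12.25, 11.68, 11.94, 12.54 and 12.49 in normal glands. All tumors of both models lay above all glands, with differences of 2.07 (adjusted p = 0.00375) and 1.63 (adjusted p = 0.0171), and over the 8 models the difference was 0.25 (adjusted p = 0.65). Salivary gland marker means were high in 4 of the 5 MMTV-Hras tumors and were 6.6 in MMTV-Hras 4. In that tumor Slc12a2 was at 14.48 and Slc5a1 at 10.10, while Slc12a8 was at 2.29, its lowest value in the model. The mean of the salivary gland list was 3.54 to 4.64 in MMTV-H2N tumors and 4.14 to 6.16 in normal glands. Its summed signal, as log2, was 10.51 to 16.71 in MMTV-Hras and 7.42 to 13.67 in MMTV-H2N tumors, against 9.73 to 11.52 in normal glands. The part of salivary gland RNA in the Slc12a2, Slc5a1 and Slc12a8 results was not tested.

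In MMTV-H2N tumors Slc28a3 was at 12.16, 12.99, 12.83, 13.19 and 12.41, within the range of normal glands (11.48 to 13.74) and 3.90 above the mean of the other groups (adjusted p = 0.00568). Slc38a3 (SNAT3), a glutamine carrier, was at 2.34, 7.52, 7.98, 7.46 and 7.48, against 2.30 to 3.70 in normal glands, so that tumor 1 lay at the level of the glands and the other 4 above all of them (difference from the other groups 3.33, adjusted p = 1.35e-05). Slc29a1 was at 13.10 to 13.75 in MMTV-H2N tumors, above all normal glands. Slc5a9, Slc37a1 and Slc35a3, the UDP-N-acetylglucosamine carrier, were 3.20, 3.15 and 2.90 above the mean of the other groups.

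In MMTV-C-Myc tumors the folate carrier Slc19a1 was at 9.50, 9.20, 9.86 and 9.77, against 5.46, 7.31, 6.71, 5.51 and 5.51 in normal glands, with no overlap. It was 2.97 above the other groups (adjusted p = 4.93e-06), and MMTV-H2N tumors came next at 8.42 to 8.85. Slc7a5 was at 10.92, 12.12, 11.89 and 11.53 in MMTV-C-Myc tumors and at 9.66, 10.72, 9.45, 11.10 and 11.31 in normal glands, 2.01 above the mean of the other groups (adjusted p = 0.00884), and the call was lost without MMTV-C-Myc 2 (adjusted p = 0.0533). Slc1a5 and Slc16a1 were, as given above, also closest to normal gland in this model. In MMTV-PymT tumors the only such member was Slc29a4 (PMAT), a monoamine carrier, at 2.59, 2.80, 4.10, 2.88, 5.88 and 4.73, against 2.17 to 2.21 in normal glands, and 1.50 above the mean of the other groups (adjusted p = 0.00139).

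**Figure D4:**
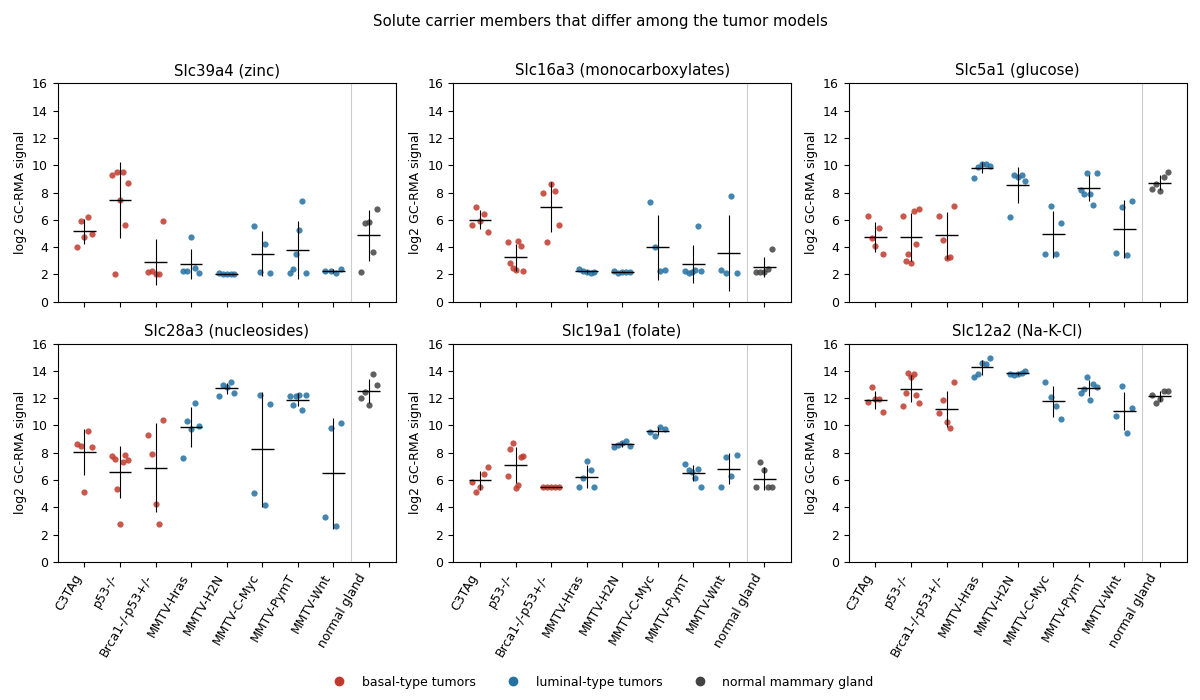
Log2 GC-RMA signal (vertical axis) of 6 solute carrier genes in each array, by tumor model and normal mammary gland, with colors, means and SD bars as in the plot of tumors and normal gland. Slc39a4 is above all other arrays in 5 of the 7 p53-/- tumors, and the highest group means are those of Slc16a3 in Brca1-/-p53+/- and C3TAg tumors, Slc19a1 in MMTV-C-Myc tumors, and Slc12a2 in MMTV-Hras and MMTV-H2N tumors.

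The 17 basal-type tumors were next pooled and set against the pooled 24 luminal-type tumors. In basal-type tumors 19 members rose and 38 fell at an adjusted p under 0.05, beside 16% and 12% of all genes, and the median difference was -0.07 over members and 0.06 over all genes. The members lower numbered 22 with FVB arrays alone and 25 with a required 2-fold difference, and the share of all genes was not computed for either. Sugar carriers gave 1 higher and 6 lower of 16, amino acid and peptide carriers 5 and 6 of 28, ion carriers 4 and 4 of 27, zinc transporters 2 and 4 of 17, and mitochondrial carriers 2 and 4 of 29. Nucleotide sugar, nucleoside and vitamin carriers gave 0 higher and 4, 3 and 4 lower. These counts take each tumor as a separate sample. With the model as a random block, where tumors of a model had an estimated correlation of 0.314, 0 members and 49 of all genes were called, 11 members were higher and 26 lower at an unadjusted p under 0.05, and the lowest adjusted p of a member was 0.0773.

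The 4 members with the largest upward differences were Slc6a6, Slc39a4, Slc22a23 and Slc16a3. Slc6a6, the taurine transporter, was at 7.23, 9.28 and 10.74 in basal-type tumors (lowest, median and highest) and at 4.13, 7.01 and 10.26 in luminal-type tumors, a difference of 2.59 ± 0.46 (SE, adjusted p = 9.03e-05, and 0.0773 once the model is a random block). Slc39a4 was at 2.03, 5.59 and 9.52 in basal-type tumors and at 2.03, 2.22 and 7.38 in luminal-type tumors, a difference of 2.53 ± 0.64 (SE, adjusted p = 0.00336, and 0.211 with the block). Slc22a23 was at 4.90, 8.19 and 9.87 in basal-type tumors and at 2.78, 5.55 and 8.65 in luminal-type tumors, a difference of 2.35 ± 0.46 (SE, adjusted p = 0.000296, and 0.139 with the block). Slc16a3 was at 2.24, 5.14 and 8.59 in basal-type tumors and at 2.12, 2.22 and 7.77 in luminal-type tumors, a difference of 2.27 ± 0.56 (SE, adjusted p = 0.00257, and 0.139 with the block). The classes overlapped for each of the 4. Fibroblast and matrix markers, of which 6 of 8 were higher in basal-type tumors, moved with this comparison. Their summed signal, as log2, was 12.08 to 16.99 in basal-type and 10.11 to 16.99 in luminal-type tumors, and their part in these results was not tested.

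The 4 with the largest downward differences were Slc28a3, Slc5a1, Slc46a1 and Slc5a9. Milk and secretory epithelium markers, of which 5 of 12 were lower in basal-type tumors, and salivary gland markers, of which 3 of 5 were lower, moved in the same direction. With the model as a random block no marker of these lists or of the fibroblast list was called, the lowest adjusted p being 0.198 in the milk list, 0.104 in the salivary list and 0.162 in the fibroblast list. The summed signal of the milk list, as log2, was 10.7 to 16.69 in basal-type and 10.9 to 17.5 in luminal-type tumors, that of the salivary list was 4.54 to 12.57 in basal-type and 4.57 to 16.71 in luminal-type tumors, and their part in these results was not tested. Slc28a3 was at 2.75, 7.74 and 10.37 in basal-type tumors and at 2.66, 11.54 and 13.19 in luminal-type tumors (difference -3.03 ± 0.87, SE, adjusted p = 0.00872, and 0.295 with the block). Slc5a1 was at 2.84, 4.54 and 7.04 in basal-type tumors and at 3.42, 8.05 and 10.10 in luminal-type tumors (difference -2.83 ± 0.61, SE, adjusted p = 0.000779, and 0.124 with the block). Among luminal-type tumors, those of the MMTV-C-Myc and MMTV-Wnt models lay with the basal-type ones for Slc5a1. Slc46a1, the proton-coupled folate transporter, was at 2.78, 3.98 and 8.24 in basal-type tumors and at 3.72, 7.70 and 8.93 in luminal-type tumors (difference -2.38 ± 0.51, SE, adjusted p = 0.000779, and 0.119 with the block). Slc5a9 was at 2.14, 2.65 and 7.37 in basal-type tumors and at 2.27, 6.62 and 8.18 in luminal-type tumors (difference -2.35 ± 0.58, SE, adjusted p = 0.00271, and 0.137 with the block). A second Slc5a9 probe set gave -0.87 without the block (limma adjusted p = 0.0653). With FVB arrays alone, in which C3TAg is the only basal-type model, Slc28a3 (-2.08, adjusted p = 0.293) and Slc22a23 (1.72, adjusted p = 0.079) were not called.

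A list of 30 related transport genes outside the members held Slco organic anion carriers, pumps, hexokinases, chaperones, receptors and others. Of these 24 were measured, and 6 were higher and 8 lower in tumors than in normal gland, beside 24.2% and 17.1% of all genes. Slco2a1 and Slco1a5 were higher by 2.63 (limma adjusted p = 0.0134) and 2.43 (adjusted p = 0.00725), and Slco3a1 was not called (1.44, adjusted p = 0.113). Emb (embigin), a chaperone of monocarboxylate carriers, was higher by 4.02 and Abcc1, a drug and glutathione conjugate exporter, by 2.39. Hk1 was higher by 1.51 and Hk2, the hexokinase of fat and muscle, was lower by a difference of -1.67. Abcg2, which secretes riboflavin and drugs into milk, was lower by -4.17, the calcium pump Atp2b2 of milk secretion by -4.07, the folate receptor Folr1 by -4.74 and the mitochondrial pyruvate carrier Mpc1 by -3.19. Bsg, the other chaperone of monocarboxylate carriers, and Ldha, the lactate dehydrogenase subunit, had differences of -0.44 and 0.06 and were not called. In basal-type against luminal-type tumors 6 of the 24 were higher and 5 lower, beside 16% and 12% of all genes. With the model as a random block none of the 24 was called by limma, and their lowest adjusted p was 0.149.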

How the data were processed

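Total RNA of 41 mammary tumors and 5 normal mammary glands was hybridized to Affymetrix mouse genome arrays after One Cycle labelling. The deposited values are GC-RMA log2 signals that the authors computed in Partek from GCOS scans, after a filter that required a present or marginal MAS5 call for a probe set in at least 3 samples. Tool versions and scan batches are not given in the sources used here. The table held 18586 probe sets. Groups came from the sample titles.

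Probe sets annotated to a single gene were used, the one with the highest mean stood for a gene, and genes over log2 4 in 3 or more arrays were kept. Tests used limma 3.58.1 (lmFit and eBayes, with statmod 1.5.0 for random blocks) in R 4.3.3 in a single fit of all 9 groups, or of the 41 tumors for basal-type against luminal-type, with Benjamini-Hochberg adjustment over 9318 genes within a contrast and a call at an adjusted p under 0.05. For tumors against normal gland each of the 8 models had equal weight. The script was tested on simulated data. Plots were drawn with matplotlib 3.10.9 in Python 3.11.15. Promoter windows and symbols came from RefSeq tables of GRCm38.p6.

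Named members are the 8 with the largest called difference in each direction between tumors and normal gland, the largest per direction in each substrate class of 5 or more members, the 4 per direction between basal-type and luminal-type tumors, the 2 largest among those high in a model, and 12 measured transporters of a list of 15. Others were named after their values were seen. The members and lists were chosen with earlier results of these data known. Alternatives were another scaling, filter, probe set summary, variance model, strain set, fold requirement, weighting, random block, replicate block and each array left out in turn. Leaving out 4 arrays apart in marker lists, or normal glands 1, 2 and 3, was chosen after seeing the data. There is no read depth for arrays, and precision is limited by group sizes of 4 to 7.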

Additional observations from a re-analysis of the deposited data

Results flagged for a closer look

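Slc39a4 was called higher than normal mammary gland in 1 model, p53-/-, and lower in another, MMTV-H2N, and the moderated F test of the difference among models gave an adjusted p of 0.000116. Single arrays also stood apart from the other arrays of their group by Dixon's test, which was applied to 46 named members in 9 groups. In all, 65 of 414 gene and group pairs were flagged. The test compares a gap with the range of the group, so a small gap is flagged where values lie close together near the floor. Slc47a1 at 2.44 with the others at 2.15 to 2.21 is such a pair. Its rate of about 1 in 20 holds for normally distributed values, so no excess over chance was drawn from the count.

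MMTV-H2N 1 was above its group in Slc43a3 (7.35, with the others at 3.63 to 4.62) and Slc12a8 (4.32, with the others at 2.11 to 2.16) and below its group in Slc5a9 (5.81, with the others at 7.73 to 8.18), Slc5a1 (6.23, with the others at 8.81 to 9.26), Slc38a3 (2.34, with the others at 7.46 to 7.98), Slc2a1 (9.84, with the others at 10.94 to 11.27) and Slc30a2 (2.08, with the others at 2.58 to 2.65). Brca1-/-p53+/- 2 was above its group in Slc27a2 (3.62, with the others at 2.14 to 2.19), Slc7a10 (8.98, with the others at 2.08 to 2.15), Slc47a1 (2.44, with the others at 2.15 to 2.21), Slc12a8 (3.06, with the others at 2.13 to 2.27) and Slc38a3 (4.25, with the others at 2.25 to 2.74). Brca1-/-p53+/- 5 was above its group in Slc5a9 (5.33, with the others at 2.16 to 3.03), Slc39a4 (5.93, with the others at 2.03 to 2.24), Slc46a1 (8.24, with the others at 3.76 to 4.13) and Slc29a4 (4.97, with the others at 2.07 to 2.31) and below its group in Slc12a7 (7.63, with the others at 9.14 to 9.56). MMTV-C-Myc 2 was above its group in Slc27a2 (3.98, with the others at 2.13 to 2.16), Slc7a10 (3.87, with the others at 2.07 to 2.20), Slc43a3 (4.76, with the others at 2.72 to 3.01), Slc12a8 (5.88, with the others at 2.13 to 2.20) and Slc29a4 (2.75, with the others at 2.09 to 2.14).

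Among C3TAg tumors, Slc25a13 was at 10.56 in tumor 2, Slc1a3 was at 5.12 in tumor 4, Slc2a4 was at 6.10 in tumor 1, Slc28a3 was at 5.11 in tumor 3, Slc5a6 was at 2.51 in tumor 1, Slc6a9 was at 5.68 in tumor 5, Slc39a13 was at 6.42 in tumor 3 and Slc30a2 was at 3.64 in tumor 5. Among p53-/- tumors, Slc15a3 was at 5.16 in tumor 3, Slc27a2 was at 2.58 in tumor 7, Slc1a3 was at 8.19 in tumor 2, Slc2a4 was at 8.73 in tumor 7, Slc5a6 was at 3.12 in tumor 3, Slc12a8 was at 9.60 in tumor 3, Slc38a3 was at 5.67 in tumor 2 and Slc29a4 was at 3.20 in tumor 7. Among MMTV-Hras tumors, Slc38a1 was at 8.86 in tumor 5, Slc25a13 was at 6.88 in tumor 4, Slc34a2 was at 8.41 in tumor 4, Slc41a3 was at 4.75 in tumor 2, Slc2a4 was at 6.32 in tumor 4, Slc39a4 was at 4.74 in tumor 3, Slc5a1 was at 9.09 in tumor 1 and Slc29a4 was at 4.28 in tumor 2. Among MMTV-H2N tumors, Slc34a2 was at 8.88 in tumor 4 and Slc1a5 was at 4.58 in tumor 2. Among MMTV-C-Myc tumors, Slc5a6 was at 3.93 in tumor 4. Among MMTV-PymT tumors, Slc2a4 was at 4.18 in tumor 3, Slc39a8 was at 9.77 in tumor 5, Slc16a3 was at 5.56 in tumor 5, Slc46a1 was at 7.03 in tumor 1, Slc12a8 was at 4.70 in tumor 6 and Slc40a1 was at 4.36 in tumor 6. Among MMTV-Wnt tumors, Slc15a3 was at 8.31 in tumor 3, Slc27a2 was at 2.60 in tumor 2, Slc24a3 was at 8.69 in tumor 3, Slc5a6 was at 3.50 in tumor 4, Slc30a6 was at 9.14 in tumor 2 and Slc16a3 was at 7.77 in tumor 3. Among normal glands, Slc15a3 was at 3.86 in gland 5, Slc16a3 was at 3.85 in gland 5, Slc46a1 was at 5.71 in gland 1 and Slc47a1 was at 3.49 in gland 1.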

How the results depend on the processing

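Of 235 alternative values for the 22 counts of members, 217 were within 1.5 times the count as reported, and of 564 for single genes 533 kept their direction and their side of the threshold. With each array centred on its median, which moves the median of all genes between tumors and normal gland by -0.202, 15 members were higher in tumors (56 lower) and 14 in p53-/- tumors, and Slc2a1 turned to -0.021. The mean of all probe sets turned Slc40a1 to 0.16. FVB arrays alone left 22 members lower in basal-type tumors. A required 2-fold difference left 14 members higher in tumors and 25 lower in basal-type tumors. The model as a random block left 0 higher and 0 lower in basal-type tumors. Without the 4 arrays apart in marker lists, 6 members were higher and 25 lower in Brca1-/-p53+/- tumors. Without normal glands 1, 2 and 3, members called higher numbered 3 over the 8 models, 15 in C3TAg, 8 in p53-/-, 9 in Brca1-/-p53+/-, 6 in MMTV-Hras, 12 in MMTV-H2N, 5 for MMTV-C-Myc, 3 for MMTV-PymT and 2 for MMTV-Wnt tumors, and Slc2a1 (-0.68), Slc12a2 (-0.0857) and Slc40a1 (0.27), none of them called, changed sign. Fewer arrays enter that comparison, and the cause of the other changes was not tested. Of the alternatives named here, only the random block had its number of all genes called computed.

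With each array left out in turn, members higher in tumors ranged from 15 (without normal gland 1) to 25 and lower from 37 to 50, and members higher in MMTV-C-Myc tumors from 11 (without MMTV-C-Myc 1) to 19. Members higher in basal-type tumors ranged from 17 to 20 and lower from 34 to 43. The difference of Slc2a1 ranged from -0.0428 to 0.54. Replicate numbers did not pair the samples. Deviations from group means correlated by 0.0144 on average over 166 pairs of arrays with the same number and by -0.00306 over 771 pairs with other numbers. With the replicate number as a block, 24 members were higher and 47 lower in tumors.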

Other observations

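Several members divided the 5 normal glands or picked out single tumors in a way that no comparison uses. Cidea, a lipid droplet protein of brown and lactating tissue, was at 2.13, 3.72 and 8.73 in tumors (lowest, median and highest) and at 13.42, 14.37, 14.32, 14.17 and 12.10 in normal glands 1 to 5, so that it did not divide the glands as Ucp1 and Slc27a2 did. Slc39a8 was at 11.28 and 9.87 in normal glands 4 and 5 and between 7.40 and 7.90 in glands 1, 2 and 3. Slc12a8 was at 9.60 in p53-/- tumor 3 and between 2.10 and 2.20 in the other 6 tumors of that model.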
